A study of Mus musculus with 6 samples.

Results

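The genes described here are 10 receptors and receptor partners through which phagocytes bind antibody-coated, lipid-laden or dying material. They are the 4 mouse receptors for the Fc part of IgG (Fcgr1, Fcgr2b, Fcgr3 and Fcgr4), their signalling chain Fcer1g, the scavenger receptors Msr1, Cd36 and Cd68, and the receptor tyrosine kinases Axl and Mertk. They were chosen by symbol, with earlier results of these data known, so shares set beside all genes describe the set and do not test it. All 10 were among the 36758 genes of the deposited table, each with a single gene ID. The samples were 6 RNA sequencing libraries from brain of C57BL/6J mice, which the series text gives as 6 months old. 3 libraries came from mice that received water as vehicle for 16 weeks, and 3 came from mice that received 0.12% trimethylamine N-oxide (TMAO), a metabolite of dietary choline and carnitine, daily for 16 weeks. Both groups carry the same strain and no engineered allele is named. The labels give microglia, the resident macrophages of the brain, as the cell type, and the extract protocol speaks of pooled RNA in template wording whose blanks were not filled in. Whether each library stands for its own animal is not said, so p-values reflect variation among libraries that may be technical only. The series title concerns the NLRP3 inflammasome of microglia in stroke, while the sample labels describe no stroke surgery.

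Fc gamma receptors bind IgG on opsonised targets. Fcgr1, Fcgr3 and Fcgr4 are activating and signal through the immunoreceptor tyrosine-based activation motif of the gamma chain encoded by Fcer1g, whereas Fcgr2b carries an inhibitory motif and restrains them. Scavenger receptors take up modified lipoproteins and other polyanionic or lipid ligands. Axl and Mertk belong, with Tyro3, to the TAM family, which recognises phosphatidylserine on dying cells through the bridging proteins Gas6 and Pros1. In the brain these genes are known from microglia and border macrophages, Mertk also from astrocytes, Cd36 also from endothelium, and Tyro3 mainly from neurons.

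4 of the 10 genes lie within 276 kb of chromosome 1, between 170958617 and 171234365 in GRCm38. Coordinates here are those of GENCODE M21, found by gene ID because the tables give none. Along that stretch the order was Fcgr2b (minus strand), Fcgr4 (plus strand), Fcgr3 (minus strand) and Fcer1g (minus strand). Fcgr1 lies apart from them on chromosome 3 (96282909 to 96293969). Msr1 is on chromosome 8 (39581685 to 39642673), Cd36 on chromosome 5 (17781690 to 17888801), Cd68 on chromosome 11 (69664213 to 69666153), Axl on chromosome 7 (25757273 to 25788705) and Mertk on chromosome 2 (128698956 to 128802894). Fcgr2b and Fcgr3 are close paralogs. In the longest coding transcript of each, 166 stretches of 50 bases were shared between them, which is 4.75% of such stretches in Fcgr2b and 12.8% in Fcgr3, so a part of their reads cannot be assigned by sequence alone. No other pair of the 10 genes shared a stretch of 50 bases.

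Promoter sequence was available from RefSeq (GRCm38.p6) for 9 of the 10 genes, all but Msr1, as windows of 250 bases before and 50 bases after each transcription start. 5 short motifs were searched on both strands. The core of PU.1-type ETS sites, GAGGAA, was in the window of 5 of the 9 genes (Fcgr1, Fcgr3, Fcgr4, Cd68 and Axl) and in 28.3% of all 32851 windows. PU.1 is the ETS factor that macrophage development depends on. The interferon-gamma-activated (GAS) type motif TTCNNNGAA was in the window of Fcgr1 and in 8.30% of all windows. The interferon-stimulated response element type motif was in that of Fcgr4 and in 3.44% of all, the AP-1 type motif TGANTCA in that of Cd68 and in 7.81% of all, and the E-box CACGTG in none of the 9 and in 7.15% of all. Below are the 150 bases upstream of the start of the 4 genes whose nearest upstream match lay closest to it, and of Mertk. Mertk, whose values went the other way in the comparison, holds none of the 5 motifs in its window. Nor do Fcgr2b, Fcer1g and Cd36, which had lower mean values in TMAO. Capitals mark the motif matches, on either strand.
Fcgr1 (chr3:96293970-96294119, minus strand): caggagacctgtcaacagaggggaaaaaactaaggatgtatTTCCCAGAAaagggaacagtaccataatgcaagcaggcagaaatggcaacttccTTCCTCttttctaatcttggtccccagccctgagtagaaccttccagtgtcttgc
Fcgr4 (chr1:171018776-171018925, plus strand): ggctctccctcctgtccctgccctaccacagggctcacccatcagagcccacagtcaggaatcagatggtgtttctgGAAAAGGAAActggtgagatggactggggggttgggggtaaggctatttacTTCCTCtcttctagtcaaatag
Fcgr3 (chr1:171059404-171059553, minus strand): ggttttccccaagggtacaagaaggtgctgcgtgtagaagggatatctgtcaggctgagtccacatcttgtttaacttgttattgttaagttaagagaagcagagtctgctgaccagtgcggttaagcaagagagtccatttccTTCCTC
Cd68 (chr11:69666171-69666320, minus strand): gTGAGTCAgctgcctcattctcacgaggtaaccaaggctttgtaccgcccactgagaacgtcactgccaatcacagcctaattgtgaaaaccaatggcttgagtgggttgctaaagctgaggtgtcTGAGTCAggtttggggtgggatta
Mertk (chr2:128698765-128698914, plus strand): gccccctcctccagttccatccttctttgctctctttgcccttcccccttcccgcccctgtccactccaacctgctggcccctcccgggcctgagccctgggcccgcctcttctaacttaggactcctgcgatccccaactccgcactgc
In Fcgr1 the GAS type match began 109 bases and the ETS core 55 bases before the start. In Fcgr4 the interferon response type match began 73 bases and the ETS core 22 bases before it. Cd68 had AP-1 type matches at 149 and 24 bases before its start, and its ETS cores lay outside the stretch printed. These matches are letters in a window and were not tested for binding. No 2 of the matches overlapped each other in these stretches.

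Levels are given as FPKM, a measure per gene length, so that genes can be compared with each other. Vehicle replicate 1 was unlike the rest. Across the 14206 genes tested, its log2 values correlated with those of the other 5 libraries at 0.804 to 0.896, against 0.959 to 0.986 among those 5. The sum over 10 neuron markers was 391 FPKM there and 904 to 1051 FPKM elsewhere. Among them Gad1 (49.1 FPKM) and Gad2 (50.2 FPKM) were highest there, while the others were lowest there, such as Slc17a7 at 14.5 FPKM. The sum over 10 border macrophage markers was 76.9 FPKM there and 3.29 to 16.4 FPKM elsewhere. All 12 microglia markers were present in each library, with sums of 98.2 to 244 FPKM, and the defining markers P2ry12 and Tmem119 had 2.47 to 6.29 and 3.21 to 6.81 FPKM. The main results are therefore also given without vehicle replicate 1. In brain RNA of mixed cells, fewer cells of a type and less RNA per cell cannot be told apart.

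9 of the 10 genes had lower mean values in TMAO than in vehicle, and Mertk had a higher one; 8 of the 9 that could be tested were lower, against 53.2% of all genes. In 7 of the 10, each TMAO library lay below each vehicle library. No gene passed the test over all genes, with limma on log2(FPKM + 1) and a Benjamini-Hochberg adjusted p under 0.05 (0 of 14206 genes, background 0%). At an unadjusted limma p under 0.05 there were 1712 of the 14206, and 5 of the 9 receptor genes tested were among those lower in TMAO, against 7.22% of all genes, and none was among those higher, against 4.84%. The groups did not overlap, with TMAO lower, in 6 of the 9, against 17.5% of all genes, and with TMAO higher in none, against 12.1%. The median difference of the 9 was -0.95 on the log2(FPKM + 1) scale, which understates the change of low genes, against -0.027 over all genes tested. Without vehicle replicate 1 these medians were -0.53 and -0.022, and 6 of the 9 were lower at an unadjusted p under 0.05, against 10.2% of all genes, and Mertk was higher, against 6.98%. The 9 genes reached 1 FPKM in at least 5 of the 6 libraries, so none entered the test through 1 group alone. Cd36 reached 1 FPKM in 2 libraries and was not tested.

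**Figure D1:**
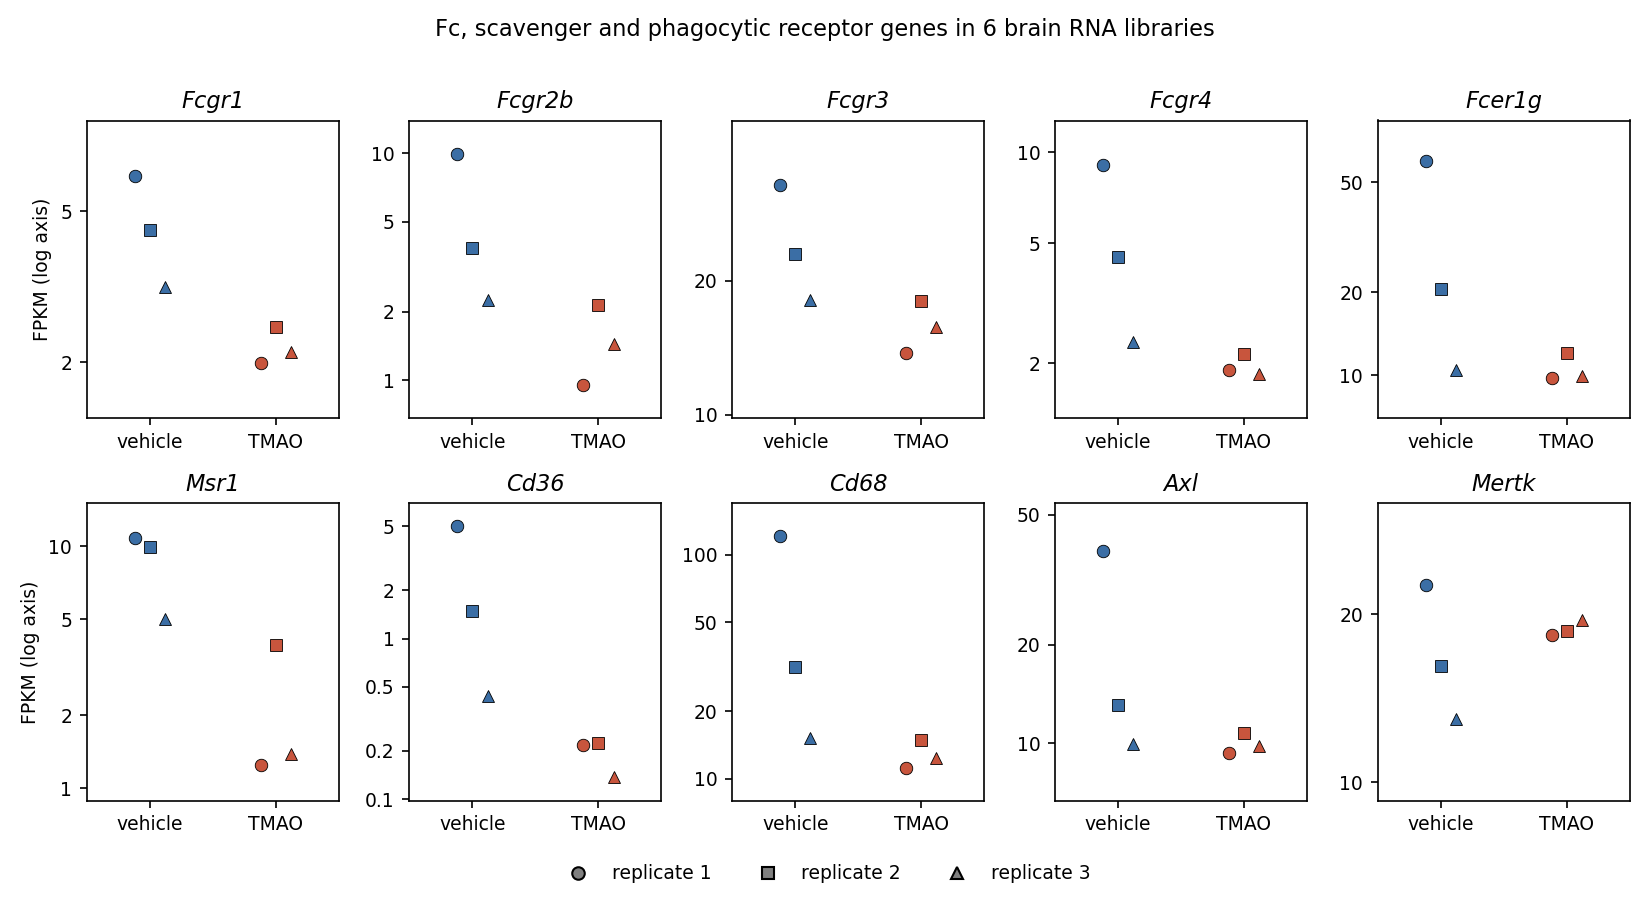
FPKM of the 10 genes in each library, on a log axis with its own range in each panel. Blue points are vehicle and red points are TMAO, and the shape gives the replicate. Vehicle replicate 1 is the highest library for all 10 genes, and vehicle replicate 3 lies beside the TMAO libraries for Fcer1g and Axl.

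Fcgr1, the high-affinity IgG receptor, had 6.18, 4.47 and 3.16 FPKM in the vehicle libraries and 1.999, 2.48 and 2.13 FPKM in the TMAO libraries. Every vehicle library lay above every TMAO library, and the lowest vehicle value was 1.27 times the highest TMAO value. The means were 4.60 ± 1.51 and 2.20 ± 0.252 FPKM (SD, n = 3 each), with a log2 difference of -0.77 (SE 0.213, 95% interval -1.29 to -0.25, limma adjusted p = 0.404). Without vehicle replicate 1 the difference was -0.58 (limma adjusted p = 0.189), and vehicle replicate 1 was 2.17 times the mean of the other 5 libraries.

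Fcgr4, an activating receptor of myeloid cells, had 9.10, 4.49 and 2.35 FPKM under vehicle and 1.904, 2.14 and 1.84 FPKM under TMAO. The groups did not overlap, although vehicle replicate 3 was only 1.09 times the highest TMAO library. Its log2 difference was -0.95 (SE 0.386, limma adjusted p = 0.404), and -0.53 without vehicle replicate 1. Fcgr3, the low-affinity activating receptor and the most abundant of the 4 in both groups, had 32.8, 23.0 and 18.1 FPKM under vehicle and 13.8, 18.0 and 15.8 FPKM under TMAO. The lowest vehicle and the highest TMAO library were almost equal, at 1.01 times each other. Its log2 difference was -0.57 (SE 0.229, limma adjusted p = 0.404), the smallest among the Fc receptor genes, and -0.36 without vehicle replicate 1.

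Fcgr2b, the inhibitory receptor, had 9.97, 3.82 and 2.25 FPKM under vehicle and 0.951, 2.14 and 1.44 FPKM under TMAO. Here too the groups did not overlap, by 1.05 times, and TMAO replicate 2 was close to vehicle replicate 3. The log2 difference was -1.17 (SE 0.458, limma adjusted p = 0.404), and -0.68 without vehicle replicate 1. Fcer1g, the chain that the activating receptors share, had 59.9, 20.5 and 10.4 FPKM under vehicle and 9.77, 12.1 and 9.92 FPKM under TMAO. Its groups overlapped, and vehicle replicate 3 was within the TMAO range. The log2 difference of -1.09 had an interval from -2.51 to 0.32 (limma adjusted p = 0.412), and it was -0.44 without vehicle replicate 1.

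The balance of activating and inhibitory receptors was read as a ratio of (FPKM + 1) within each library, in which the added 1 dampens the low Fcgr2b values. Fcgr3 exceeded Fcgr2b by 1.62, 2.32 and 2.56 log2 units in vehicle and by 2.92, 2.60 and 2.78 in TMAO. All TMAO libraries lay above all vehicle libraries, the closest being vehicle replicate 3 and TMAO replicate 2. The difference was 0.60 (two-sided exact permutation p = 0.1, the lowest possible with 3 libraries a group, or 0.189 after adjustment over the 17 ratios tested), 0.33 without vehicle replicate 1, and 0.96 with a pseudocount of 0.1. Since Fcgr3 and Fcgr2b share sequence, this ratio also rests on how their shared reads were divided. For Fcgr1 over Fcgr2b and Fcgr4 over Fcgr2b the groups overlapped, with differences of 0.40 and 0.23 (exact permutation p = 0.4 for both), and of 0.11 and 0.15 without vehicle replicate 1. The sum of the 4 receptors over Fcer1g was at -0.044, 0.77 and 1.24 log2 units in vehicle and at 0.86, 0.98 and 1.02 in TMAO. Its difference of 0.30 became -0.050 without vehicle replicate 1, the library in which Fcer1g was highest relative to the receptors.

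**Figure D2:**
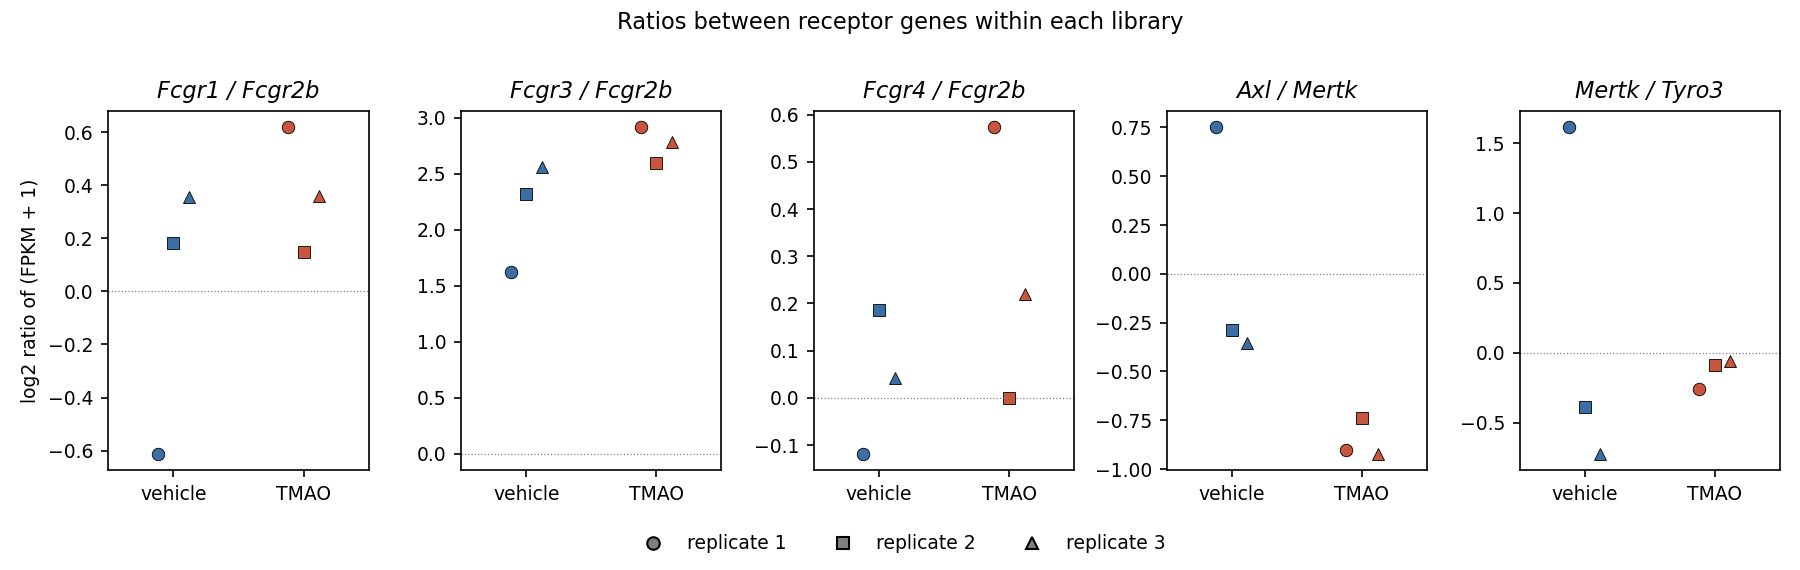
Log2 ratios of (FPKM + 1) between receptor genes within each library, with a separate axis range in each panel and a dotted line at equal values. Vehicle is blue, TMAO is red and the shape gives the replicate. Fcgr3 over Fcgr2b and Axl over Mertk separate the groups, and vehicle replicate 1 lies far from the other 5 libraries in Mertk over Tyro3.

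Of the scavenger receptors tested, Msr1 had the larger difference on the log2(FPKM + 1) scale. Msr1 encodes the class A macrophage scavenger receptor, which binds modified lipoproteins. It had 10.8, 9.96 and 4.99 FPKM under vehicle and 1.24, 3.90 and 1.38 FPKM under TMAO. No library of a group reached the other group, and TMAO replicate 2 was well above the other TMAO libraries. The log2 difference was -1.63 (SE 0.396, 95% interval -2.59 to -0.66, limma adjusted p = 0.404), and it was -1.45 without vehicle replicate 1 (limma adjusted p = 0.201). The vehicle mean was 3.94 times the TMAO mean with all libraries and 3.43 times without vehicle replicate 1.

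Cd68, an endolysosomal glycoprotein used as a marker of phagocytic macrophages, had 122, 31.5 and 15.2 FPKM under vehicle and 11.2, 14.8 and 12.4 FPKM under TMAO. Vehicle replicate 1 was 7.15 times the mean of the other 5 libraries, and vehicle replicate 3 was 1.02 times the highest TMAO library. The log2 difference was -1.55 (SE 0.704, limma adjusted p = 0.404), and -0.74 without vehicle replicate 1. Cd36, a class B scavenger receptor that also takes up long-chain fatty acids, was the least abundant gene, at 4.97, 1.49 and 0.436 FPKM under vehicle and 0.218, 0.224 and 0.137 FPKM under TMAO. The groups did not overlap, and vehicle replicate 3 was 1.95 times the highest TMAO value. The vehicle mean of Cd36 was 11.9 times its TMAO mean, and 4.98 times without vehicle replicate 1. On the log2(FPKM + 1) scale the means differed by -1.22, and by -0.67 without vehicle replicate 1. In a fit with no filter on low values, Cd36 had a limma adjusted p of 0.611. The ratio of Msr1 to Cd36 overlapped between the groups, with a difference of -0.41 (exact permutation p = 0.4), which was 0.45 with a pseudocount of 0.1.

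The mean log2 differences of the TAM receptors Axl and Mertk had opposite signs with all libraries. Axl, the member known to be induced by interferon and inflammatory stimuli, had 38.8, 13.1 and 9.95 FPKM under vehicle and 9.36, 10.8 and 9.85 FPKM under TMAO. Its groups overlapped, with vehicle replicate 3 inside the TMAO range. The log2 difference was -0.74 (95% interval -1.88 to 0.41, limma adjusted p = 0.438), and -0.18 without vehicle replicate 1. Mertk, which serves in the routine clearance of dying cells, had 22.6, 16.2 and 12.98 FPKM under vehicle and 18.4, 18.7 and 19.5 FPKM under TMAO. The TMAO libraries lay close together, between the highest and the next vehicle library. Its log2 difference was 0.15 (95% interval -0.33 to 0.64, limma adjusted p = 0.659). Without vehicle replicate 1 it was 0.36 (95% interval 0.11 to 0.61, limma adjusted p = 0.192), with every TMAO library above both remaining vehicle libraries, and without vehicle replicate 3 it was -0.020.

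Axl over Mertk stood at 0.75, -0.29 and -0.35 log2 units in vehicle and at -0.90, -0.74 and -0.92 in TMAO. The groups did not overlap, and they did not overlap without vehicle replicate 1 either. The difference was -0.89 (exact permutation p = 0.1, adjusted p = 0.189 over the 17 ratios) and -0.53 without vehicle replicate 1. Tyro3, the third TAM receptor, had 6.70, 21.5 and 22.1 FPKM under vehicle and 22.2, 19.9 and 20.4 FPKM under TMAO, so vehicle replicate 1 was low for Tyro3, as it was for the summed neuron markers. Mertk over Tyro3 accordingly differed by -0.30 with all libraries and by 0.42 without vehicle replicate 1 (exact permutation p = 1.0 and 0.1). Axl over Tyro3 overlapped, with a difference of -1.20, and of -0.11 without vehicle replicate 1.

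**Figure D3:**
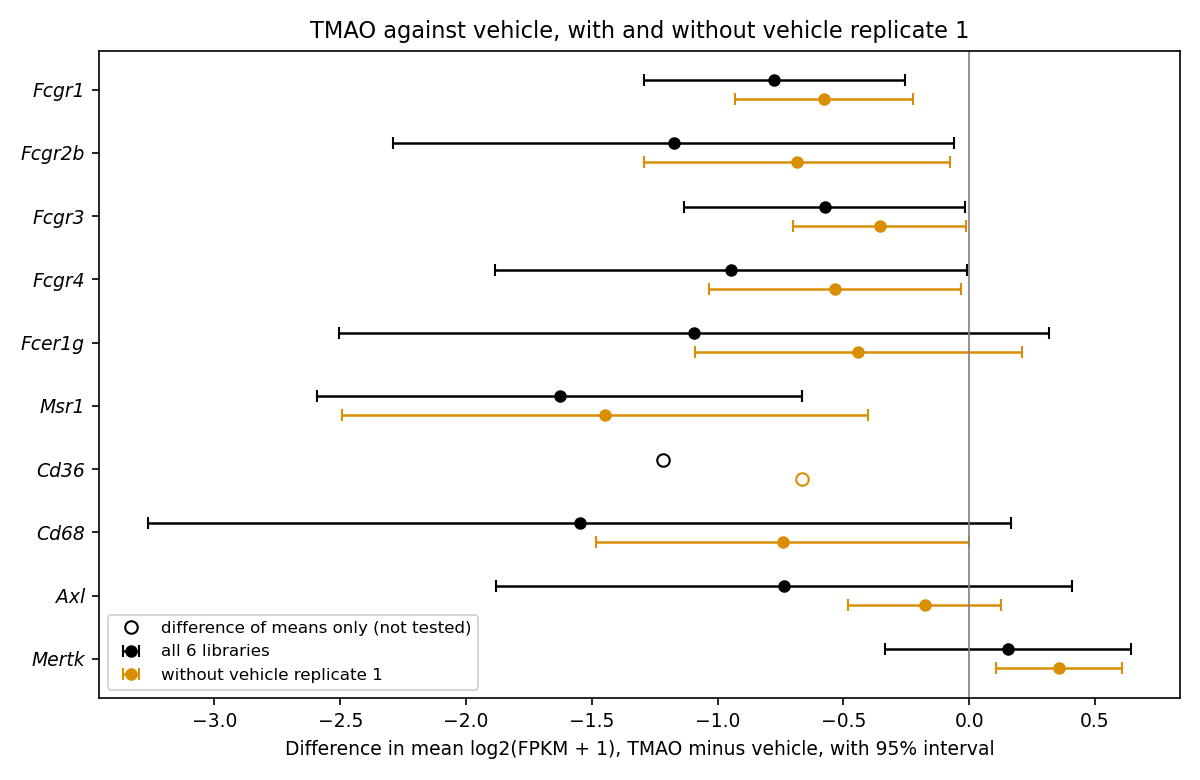
Difference in mean log2(FPKM + 1) between TMAO and vehicle for each gene, with 95% intervals from limma, for all 6 libraries (black) and without vehicle replicate 1 (orange). Open circles mark Cd36, which was not tested. 9 of the 10 points lie below 0 in both, Mertk lies above 0 in both, and no gene passed the adjusted threshold.

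Cd68 led the levels in vehicle and Mertk in TMAO. In vehicle the means ran from 56.1 FPKM for Cd68 through Fcer1g (30.3), Fcgr3 (24.7), Axl (20.6) and Mertk (17.3) to Msr1 (8.58), Fcgr2b (5.35), Fcgr4 (5.31), Fcgr1 (4.60) and Cd36 (2.30 FPKM). The ranges of neighbours in this order overlapped, except between Mertk and Msr1. Without vehicle replicate 1, Cd68 (23.3) still led by mean, before Fcgr3 (20.6), Fcer1g (15.5), Mertk (14.6) and Axl (11.5 FPKM). In vehicle replicate 3, Fcgr3 (18.1 FPKM) lay above Cd68 (15.2 FPKM). In TMAO Mertk was highest at 18.9 ± 0.615 FPKM, above Fcgr3 (15.8), Cd68 (12.8), Fcer1g (10.6) and Axl (9.996 FPKM). A gap without overlap then separated Axl from Fcgr1 (2.20), Msr1 (2.18), Fcgr4 (1.96) and Fcgr2b (1.51 FPKM), and another separated these from Cd36 (0.193 FPKM). Libraries of the TMAO group were closer to each other. The coefficient of variation was larger in vehicle for 9 of the 10 genes, at 28.5% to 103%, against medians over all genes tested of 22.2% in vehicle and 8.91% in TMAO. Msr1 was the exception, at 36.6% in vehicle and 68.7% in TMAO.

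All 9 tested receptor genes, and Cd36, were highest in vehicle replicate 1 and had their lowest vehicle value in replicate 3. The same order of the vehicle libraries was found in 30.0% of all genes tested, and vehicle replicate 1 was the highest library in 41.8%. The factor by which vehicle replicate 1 exceeded the mean of the other 5 libraries had a median of 1.03 over all genes tested. It ran from 1.32 for Mertk and 1.85 for Fcgr3 to 7.15 for Cd68 and 9.93 for Cd36. In TMAO, replicate 2 was the highest library for 8 of the 9, against 37.8% of all genes, and Mertk was highest in replicate 3.

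Marker lists of other cell types differed between the libraries as well. The border macrophage list, of which Mrc1 and Cd163 are also scavenger receptors, summed to 76.9, 16.4 and 4.94 FPKM under vehicle and 3.29, 6.57 and 3.87 FPKM under TMAO. The ranges overlapped through vehicle replicate 3, 3 of the 10 markers passed the filter, all 3 with lower values in TMAO, and Clec4n and Cd209f were at 0 in at least 1 library. Neutrophil markers summed to 130, 60.6 and 15.6 FPKM under vehicle and 7.95, 9.92 and 6.25 FPKM under TMAO, without overlap, and 4 of 4 tested had lower values. The 10 monocyte markers summed to 22.5 to 101 FPKM in vehicle and 12.98 to 48.2 FPKM in TMAO, and 3 of the 5 tested had lower values. Nr4a1 alone held 32.5 of the 41.2 FPKM of TMAO replicate 2, and 38.8 of the 48.2 FPKM of TMAO replicate 3. Chil3 and Ifitm6 were lower in TMAO without overlap, with log2 differences of -2.90 and -1.31. With overlap, Ace was lower (-0.71), whereas Nr4a1 (0.32) and Plac8 (0.030) were higher. Endothelial markers, of interest for Cd36, summed to 415, 161 and 114 FPKM in vehicle and 96.4 to 115 FPKM in TMAO, with 9 of 10 lower. The 12 lymphocyte markers, a check for B cells that carry Fcgr2b, summed to at most 1.13 FPKM in a library, and none passed the filter. Microglia markers were split, with 6 of 12 lower and 6 higher in TMAO and sums of 98.2 to 244 and 108 to 125 FPKM. Without vehicle replicate 1, 3 of the 12 were lower, and their median log2 difference was 0.21, against 0.023 with all libraries. Fibroblast markers summed to 134, 28.0 and 14.5 FPKM in the vehicle libraries and to 14.3 to 20.2 FPKM in TMAO, with overlap, and 4 of the 5 tested were lower. Astrocyte markers summed to 702 to 1117 and 723 to 790 FPKM, with 6 of 10 lower. Oligodendrocyte markers summed to 760 to 928 FPKM in vehicle and 389 to 630 FPKM in TMAO, and erythroid markers to 196 to 602 and 80.7 to 110 FPKM, both without overlap. The part of these cell types in the receptor values was not tested.

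**Figure D4:**
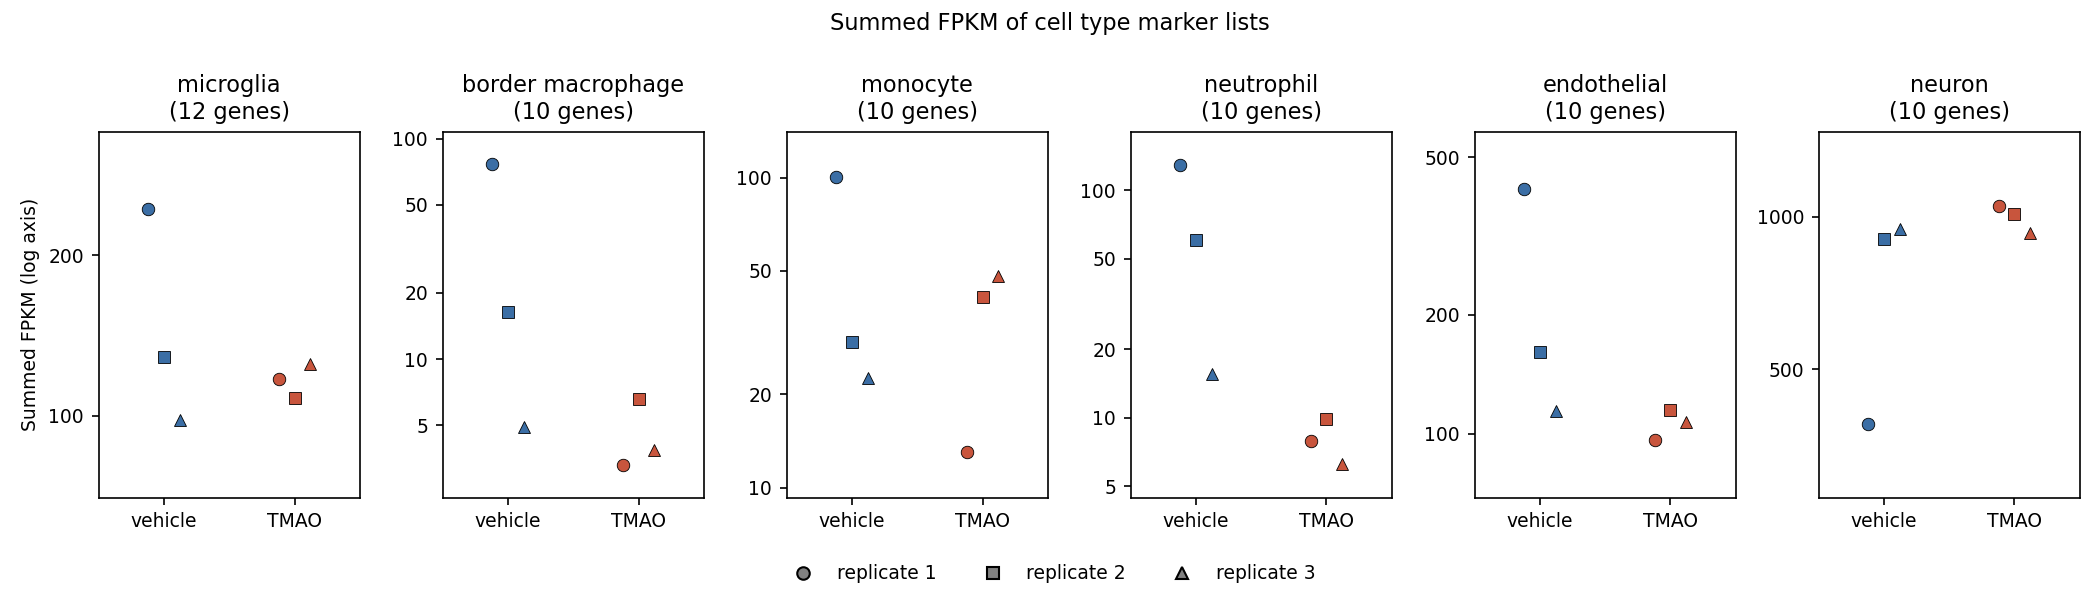
Summed FPKM of 6 marker lists in each library, on log axes with a separate range in each panel. Vehicle is blue, TMAO is red and the shape gives the replicate. Vehicle replicate 1 is highest for the macrophage, monocyte, neutrophil and endothelial lists and lowest for the neuron list.

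Set against the mean log2 level of the microglia list in the same library, 7 of the 10 genes had groups that did not overlap, all with TMAO lower, which is Cd36 and 6 of the 9 genes tested, against 14.1% of all genes tested under the same ratio. The differences were -0.76 for Fcgr1, -1.16 for Fcgr2b, -0.56 for Fcgr3, -0.93 for Fcgr4, -1.61 for Msr1, -1.20 for Cd36 and -1.53 for Cd68 (exact permutation p = 0.1 for each, adjusted p = 0.189 over the 17 ratios). Fcer1g, Axl and Mertk overlapped, at -1.08, -0.72 and 0.17. Without vehicle replicate 1 the same 7 genes had no overlap, against 39.0% of all genes tested, with differences of -1.64 for Msr1 to -0.55 for Fcgr3. With a pseudocount of 0.1 the difference of Cd36 against the microglia list was -2.48. Against the border macrophage list the picture differed. Fcgr1, Fcgr3 and Axl then had differences of 0.099, 0.30 and 0.13, and Fcgr4 and Fcer1g of -0.075 and -0.22, all with overlapping groups. Cd36 at -0.35 and Cd68 at -0.68 had TMAO lower without overlap, Fcgr2b at -0.30 and Msr1 at -0.76 had lower values with overlap, and Mertk was higher without overlap, at 1.03. That denominator was chosen after the values were seen, and most of its genes are near or below 1 FPKM, where the pseudocount flattens them.

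The wider phagocytic machinery was described by 6 lists, in which 0 genes passed the adjusted threshold by limma. At an unadjusted limma p under 0.05, TMAO was lower for 1 of 4 further Fc receptors, 0 of 9 further scavenger receptors, 4 of 19 engulfment receptors, 1 of 11 bridging molecules, 1 of 19 signalling genes and 2 of 23 genes of the engulfment machinery, against 7.22% of all genes. It was higher for 1 of the 19 engulfment receptors, against 4.84% of all genes. Among 10 further Fc receptors and Fc-binding proteins 4 were tested, 3 with lower values in TMAO (median log2 difference -0.51, and -0.17 without vehicle replicate 1). They were led by Trim21, a cytosolic antibody receptor, at 1.36 ± 0.381 and 0.750 ± 0.224 FPKM, Fcrls, an Fc receptor-like gene of mouse microglia, at 22.7 ± 10.3 and 10.2 ± 4.76 FPKM, and Fcgrt, the neonatal Fc receptor, at 8.67 ± 7.07 and 4.46 ± 0.282 FPKM (vehicle and TMAO, SD, n = 3). Of these 3, Fcrls had groups that did not overlap. Fcgrt differed by -0.58 on the log2 scale with all libraries and by -0.023 without vehicle replicate 1, in which it stood at 16.8 FPKM, against 5.54 and 3.70 FPKM in the other vehicle libraries. Mast cell and B cell Fc receptors were at or near 0, with Fcer1a listed at 0 in all libraries.

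Of 17 further scavenger receptors 9 were tested, and 8 were lower in TMAO, with a median of -0.47 that was -0.073 without vehicle replicate 1. The smallest p-values belonged to Scarf2 (-0.49), the high-density lipoprotein receptor Scarb1 (-0.38) and Stab1 (-1.13), which without vehicle replicate 1 were at -0.25, -0.19 and -0.49. For Scarb1 the values were 4.80, 2.97 and 2.84 FPKM under vehicle and 2.74, 2.43 and 2.13 FPKM under TMAO, a narrow separation. Other engulfment receptors were split, with 13 of 19 lower and 6 higher (median -0.43, and -0.063 without vehicle replicate 1). Megf11, a relative of the engulfment receptor Megf10, had 2.21, 1.79 and 2.10 FPKM under vehicle and 1.22, 1.25 and 1.10 FPKM under TMAO. It was lower in each TMAO library and differed little without vehicle replicate 1 (log2 difference -0.47 and -0.43, limma adjusted p = 0.404 with all libraries). Cd14, a co-receptor for lipopolysaccharide that also binds apoptotic cells, had a log2 difference of -2.99, and -2.32 without vehicle replicate 1. Vldlr, a lipoprotein and reelin receptor, had higher values in TMAO, at 6.09, 6.50 and 6.50 against 4.46, 5.22 and 5.22 FPKM (log2 difference 0.31).

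Bridging molecules and related phagocytosis signals were lower in TMAO for 9 of 11 genes, with a median of -0.63 that was -0.22 without vehicle replicate 1. The 2 with higher values were Gas6 (log2 difference 0.27) and Cd47 (0.082). Thbs1, a ligand of Cd36, had 42.2, 8.54 and 2.97 FPKM under vehicle and 0.407, 0.722 and 0.300 FPKM under TMAO. Those groups were far apart, and the log2 difference was -3.01 (SE 0.824, limma adjusted p = 0.404), and -2.07 without vehicle replicate 1. Pros1, a ligand of the TAM receptors, had 42.3, 15.5 and 7.70 against 6.36, 8.71 and 6.29 FPKM, with overlap. Lgals3, a galectin that binds Mertk, had a log2 difference of -1.80, and -0.89 without vehicle replicate 1, also with overlap. Gas6, the other TAM ligand, was taken for its pairing with Axl and Mertk after its values were seen, and had 22.7, 21.0 and 33.9 FPKM under vehicle and 32.3, 30.8 and 29.2 FPKM under TMAO, without a separation of the groups.

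Downstream of the Fc receptors, 16 of 19 signalling genes were lower in TMAO, with a median of -0.40 that was -0.18 without vehicle replicate 1. The Src family kinase gene Lyn, which phosphorylates activation and inhibitory motifs, had 10.9, 5.12 and 3.45 FPKM under vehicle and 2.40, 3.20 and 2.41 FPKM under TMAO. Gab2 and Lat2, adaptors in the same pathway, had log2 differences of -0.84 and -0.65, which were -0.48 and -0.36 without vehicle replicate 1, and Lyn had -0.91 and -0.51. These 3 had the smallest p of the list and are among the 8 of its 19 genes whose groups did not overlap with TMAO lower, against 17.5% of all genes. In the actin and engulfment machinery 20 of 23 genes were lower in TMAO, with a median of -0.42 that was -0.18 without vehicle replicate 1. Arpc1b, a subunit of the actin-nucleating Arp2/3 complex, had a vehicle mean of 17.7 ± 13.8 FPKM and a TMAO mean of 5.27 ± 0.484 FPKM (SD, n = 3 each). Its vehicle values were 33.5, 11.7 and 7.97 FPKM, and the log2 difference of -1.33 was -0.77 without vehicle replicate 1. The GTPase gene Rhog and the actin regulator gene Was had log2 differences of -0.93 and -0.49, and -0.53 and -0.29 without vehicle replicate 1.

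**Figure D5:**
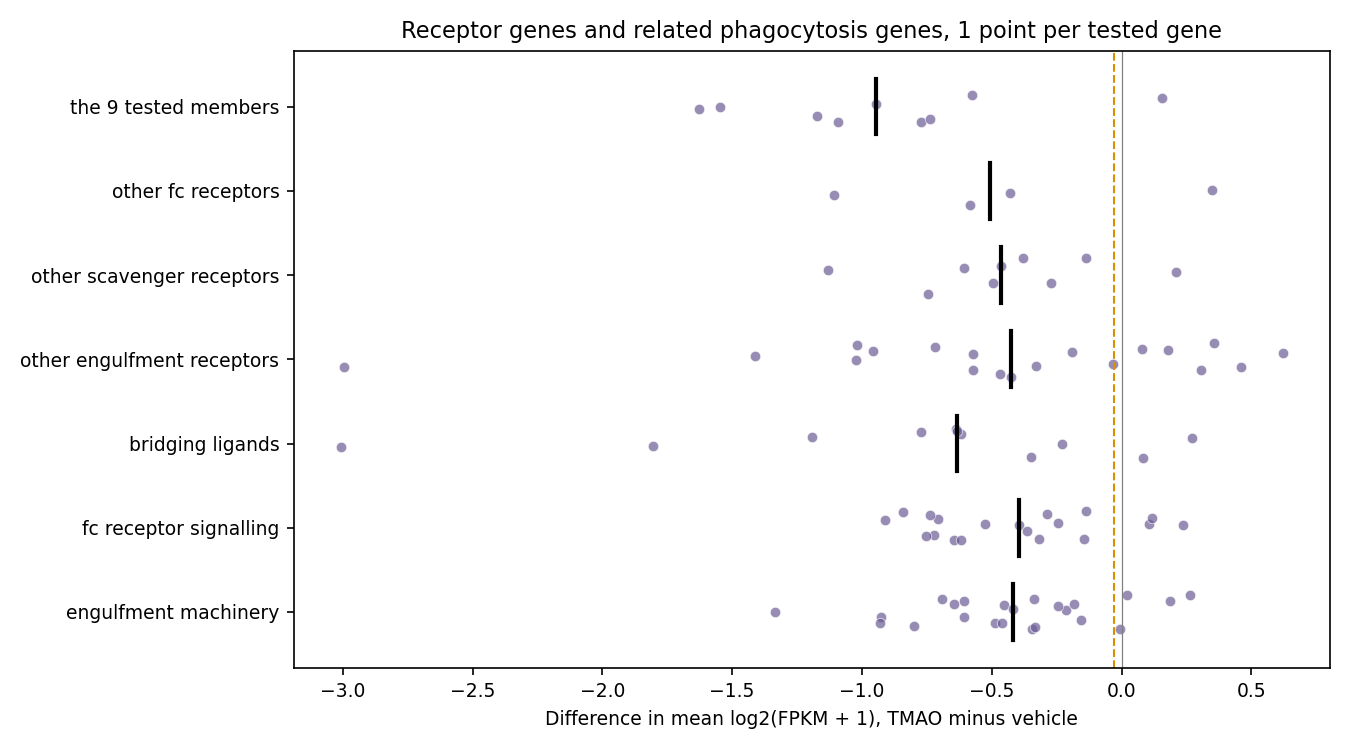
Difference in mean log2(FPKM + 1) between TMAO and vehicle, 1 point for each tested gene, for the 9 tested receptor genes and 6 lists of related genes. Black bars are list medians, and the dashed line is the median of all genes tested at -0.027. All medians lie left of that line, that of the receptor genes at -0.95 and those of the lists between -0.63 and -0.40.

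The genes with the most similar profile were found by the root mean square difference of centred log2(FPKM + 1) values over the 6 libraries, among 12446 tested genes with an assigned symbol. For Fcgr1 they were H2bc8 (0.0451 log2 units) and Arid5a (0.0512), and for Fcgr4 they were Irf5 (0.0431) and Csf2rb (0.0489). Fcgr2b was closest to Ifi204 (0.0841) and Pxdc1 (0.107), and Fcgr3 to Etf1 (0.0267) and Ptgfrn (0.0513). Each of these, and of the closest genes below, was highest in vehicle replicate 1, as were the 10 genes they were matched to. This follows from how they were picked, as do other shared features of neighbours below. Fcer1g had Col4a2 (0.0565) and Stra6 (0.0675) as neighbours, Cd36 had Cstb (0.0599) and Errfi1 (0.0672), Cd68 had Nid1 (0.0679) and Ecm1 (0.0811), and Axl had Gngt2 (0.0350) and Lamb2 (0.0471). The match of Cd36 is affected by the added 1, which flattens low values. Cd36 ran from 0.137 to 4.97 FPKM and Cstb from 19.3 to 110 FPKM. Msr1 had the most distant neighbours, A2m (0.177) and Apold1 (0.219), which shared its high TMAO replicate 2. Among the genes closest to Mertk was Plxnb1 (0.0650). Fcgr1 and Fcgr3 were each other's nearest gene among the 10, at 0.114. Among all 12446 genes, though, Fcgr3 ranked only 30 for Fcgr1, and Fcgr1 ranked 158 for Fcgr3. Axl and Fcgr4 were likewise each other's nearest of the 10, at 0.210, with ranks of 376 for Fcgr4 and 425 for Axl. The nearest of the 10 to Mertk was Fcgr3, at 0.379.

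The authors' deposited table marked 8 of the 10 genes as significantly lower in TMAO, against 5.35% of the 34778 genes with a mean above 0, and none as higher, against 1.39%. Fcgr3 and Mertk carried no mark, which in the authors' deposited table went with an unadjusted p under 0.05 and a log2 fold of at least 1 in size. By the q-value of the authors' deposited table, 2 of the 10 were under 0.05, against 0.963% of the genes, namely Msr1 (log2 fold -1.98, q of 0.0189) and Cd36 (log2 fold -3.57, q of 0.00129). In the authors' deposited table Cd68 had a log2 fold of -2.13 with a q of 0.0696, and Axl had -1.04 with a q of 0.425. Which test gave those values is not stated in the labels or headers.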

How the data were processed

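RNA from brain of 3 vehicle and 3 TMAO samples was sequenced on a NovaSeq machine, per the labels' protocols. The submitters' processing notes name cutadapt 1.9, a read trimmer, and the mouse build mm9. Aligner, quantifier and annotation were not given in the sources used here. The authors deposited FPKM per gene, per the file headers, with their ratio (fold) of TMAO over vehicle, its log2, and a p-value and q-value. Total FPKM per library ran from 305701 to 326977. Read counts were not used here, so depth is unknown and precision rests on the spread between libraries.

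Columns were matched to samples by library name. The 14206 of 36758 genes that reached 1 FPKM in 3 or more libraries were tested on log2(FPKM + 1) with limma 3.58.1 in R 4.3.3 (trend, robust), two-sided, at a Benjamini-Hochberg adjusted p of 0.05, after a check on simulated data. Single values were compared by exact permutation tests. The genes and lists were chosen with earlier results of these data known. Named were all 10 genes, the 3 genes of each list with the smallest p and the 2 closest profiles, of which 1 is not reported here. Alternatives covered scaling, pseudocount, filter, variance model, replicate block and each left-out library. Figures used matplotlib 3.10.9.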

Additional observations from a re-analysis of the deposited data

How the results depend on the processing

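By limma, 0 of the 14206 genes and 0 of the 9 receptor genes tested passed the adjusted threshold under any alternative, at 0.1 as well, and leaving out any library gave 0 and 0. At an unadjusted p under 0.05, 1712 genes became 528 to 3365 when a library was left out. Of these, the 1025 lower in TMAO became 305 to 1975, and the 5 receptor genes lower in TMAO became 2 to 8. The lowest counts of receptor genes came without vehicle replicate 2 or any TMAO replicate (2 each). All genes lower in TMAO then numbered 763 without vehicle replicate 2, and 386, 482 and 305 without TMAO replicates 1, 2 and 3. The highest count came without vehicle replicate 3 (8, against 1975 of the 14206 genes). There were 3 receptor genes under median scaling and 3 with the replicate block, against 769 and 724 of all genes. Genes lower in TMAO numbered 1025 of 1712 and, under quantile normalization, 845 of 1789, with median scaling 769 of 1738. The 9 log2 differences below 0 kept their direction in every alternative run, and Mertk ranged from -0.020 (without vehicle replicate 3) to 0.36 (without vehicle replicate 1). With a pseudocount of 0.1, Msr1 over Cd36 was 0.45, Fcgr3 over Fcgr2b 0.96, Fcgr4 over Fcgr2b 0.37 and Cd36 against the microglia list -2.48. Against the border macrophage list, added after the data were seen, Fcgr1, Fcgr3 and Axl were at 0.099, 0.30 and 0.13. When a library was left out, the Fc gamma receptor sum over Fcer1g ranged from -0.050 to 0.59 and Mertk over Tyro3 from -0.75 to 0.42, the median of further Fc receptors from -0.76 to -0.17 and that of further scavenger receptors from -0.59 to -0.073. The cause was not tested. Same-numbered libraries did not deviate together (correlations of -0.22, -0.064 and -0.015, and 0 of 6 libraries correlated best with its own number). With 3 libraries a group, and vehicle replicate 1 unlike the rest, these correlations cannot decide whether the samples were paired. The block called 0 genes, as did every other setting.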
